A study of Mus musculus with 20 samples.

Results

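Astrocytes take up glutamate and potassium, couple to one another through gap junctions and wrap blood vessels, and a set of transporters, channels and enzymes marks that homeostatic state. After injury or inflammation astrocytes become reactive, a state in which intermediate filament proteins such as Gfap and vimentin rise together with acute-phase, complement and cytokine-response genes. In the hippocampus Gfap is also present in resting astrocytes and in the radial glia-like stem cells of the dentate gyrus.

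The 33 genes described here are a chosen list of 19 homeostatic and 14 reactive astrocyte genes, and all 33 have a row among the 18054 genes of the count table and passed the filter on low counts in both assays. The homeostatic genes are Aqp4, Slc1a2, Slc1a3, Gja1, Gjb6, Aldh1l1, Aldoc, S100b, Sox9, Fgfr3, Acsbg1, Slc4a4, Glul, Mlc1, Ntsr2, Atp1b2, Clu, Sparcl1 and Cst3. The reactive genes are Gfap, Vim, Id3, Id1, Cp, Serpina3n, Lcn2, C4b, Cd44, Osmr, Steap4, Gbp2, Tspo and Timp1.

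The tissue was mouse hippocampus, from Qtrt1-/- animals and wild-type animals. Qtrt1 encodes the catalytic part of tRNA-guanine transglycosylase, the enzyme that places queuosine in the anticodon of the tRNAs that read asparagine, aspartate, histidine and tyrosine codons. Each of 10 animals gave 1 library of ribosome footprints, the mRNA stretches shielded by ribosomes, and 1 input library of cytoplasmic RNA from the same lysate. There were 3 wild-type and 3 knockout females, aged 6 months and 21 days except for wild-type female 1 at 6 months and 22 days. There were 2 wild-type and 2 knockout males, of which animal 1 of each genotype was aged 6 months and 18 days and animal 2 of each genotype 5 months and 16 days. Sex and age therefore coincide in part, since every male was younger than every female, and their effects were not separated. The sources used here do not say how the Qtrt1 allele was made.

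Footprint libraries held 5357812 to 15517982 counts and input libraries 9000662 to 13637370. Qtrt1 itself had 24 to 29 counts in the knockout input libraries against 66 to 88 in wild type, and 1 to 10 against 28 to 94 in footprints. All 7 defining astrocyte markers were detected in every library. Female libraries differed in other tissue before any astrocyte gene was considered. The mean level of the 13 striatum markers that passed the filter in footprints was 4.91 to 6.24 log2 CPM (counts scaled to library size) in wild-type females. It was 3.69 to 5.29 in knockout females and 3.62 to 4.17 in males. Of all 14 striatum markers, Ido1 was the only one at 0 in any library. The mean of 18 choroid plexus markers was 1.34 to 4.52 in wild-type females and 3.68 to 5.28 in knockout females, and none was at 0 in footprints. The mean of 13 meningeal fibroblast markers was 3.88 to 4.20 in wild-type females and 4.64 to 4.92 in knockout females, so these groups did not overlap, and none was at 0. In female knockout footprints 2.81% of all tested genes rose and 4.25% fell (edgeR adjusted p under 0.05). There 6 of the 13 meningeal markers and 1 of the 18 choroid plexus markers rose, and 4 of 13 tested striatum markers fell. In female input RNA, with shares of 0.748% and 2.73%, the meningeal markers Slc13a4, Ogn and Col3a1 rose. The striatum markers Syndig1l and Penk fell there. Their part in the differences of the astrocyte genes was not tested beyond the settings given beside the results.

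Among the reactive genes, Gfap, Id3 and Cp rose in both assays of knockout females. The stretches of 250 bases before their annotated starts are shown because these were the members that moved together, with any match to a short motif in capitals. They come from RefSeq on GRCm38.p6, which held entries for 25 of the 33 members and none for Aqp4, Sox9, Atp1b2, Clu, Sparcl1, Id1, C4b and Tspo. The Gfap stretch is chr11:102897201-102897450 on the minus strand, the Id3 stretch chr4:136143572-136143821 on the plus strand, and the Cp stretch chr3:19956804-19957053 on the plus strand, the more upstream of 2 annotated Cp starts.
Gfap: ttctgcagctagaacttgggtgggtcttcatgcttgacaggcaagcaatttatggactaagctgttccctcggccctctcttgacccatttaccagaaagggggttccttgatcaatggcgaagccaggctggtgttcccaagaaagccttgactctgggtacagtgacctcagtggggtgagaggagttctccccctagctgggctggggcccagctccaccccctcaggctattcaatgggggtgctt
Id3: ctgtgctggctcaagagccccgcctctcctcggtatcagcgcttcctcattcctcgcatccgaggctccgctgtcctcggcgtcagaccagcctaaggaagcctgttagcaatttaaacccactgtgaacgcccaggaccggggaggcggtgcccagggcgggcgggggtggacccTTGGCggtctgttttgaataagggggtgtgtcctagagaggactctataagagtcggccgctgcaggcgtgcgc
Cp: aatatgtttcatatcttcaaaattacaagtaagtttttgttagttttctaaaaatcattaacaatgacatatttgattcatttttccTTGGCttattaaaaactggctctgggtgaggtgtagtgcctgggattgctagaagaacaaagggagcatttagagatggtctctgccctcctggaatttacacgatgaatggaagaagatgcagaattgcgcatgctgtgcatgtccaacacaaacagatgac
The capitals mark TTGGC, a short form of the nuclear factor I site, searched on both strands together with the STAT form TTCNNNGAA and the BMP-responsive SMAD form GGCGCC. Id3 and Cp each held 1 TTGGC in these bases, and the printed Gfap stretch held none of the 3 motifs. Over windows of 300 bases that run 50 bases past the start, TTGGC occurred in 46.7% of 32851 promoters and in 7 of 11 reactive and 8 of 14 homeostatic members with an entry. The STAT form occurred in 8.3% of all promoters, in 2 reactive members (Gfap and Steap4) and in 4 homeostatic members. The SMAD form occurred in 11.9% of all promoters, in 2 homeostatic members and in no reactive member. These shares are per promoter entry, whereas a member with 2 entries (Aldoc, Fgfr3, Slc4a4 and Cp) counted if either matched. The stretches also differed in base composition, with 55.6% G and C for Gfap, 62.8% for Id3 and 37.2% for Cp.

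In wild-type hippocampus the homeostatic genes were far more heavily translated than the reactive genes. Per kilobase of coding sequence, footprints were most abundant on Cst3, the secreted protease inhibitor cystatin C, at 4033 ± 588 CPM (SD, n = 5). Slc1a2, the main glutamate transporter of astrocytes, followed at 3093 ± 438, then Sparcl1, a secreted synapse-promoting protein, at 2580 ± 387 and Clu, the secreted chaperone clusterin, at 1973 ± 204. The ranges of neighbours overlapped, at 3254 to 4641 for Cst3, 2630 to 3617 for Slc1a2 and 2016 to 3060 for Sparcl1, so the order of neighbours is not fixed in every animal. Gfap was the highest reactive gene, 12th of the 33 at 155 ± 61.1 CPM per kilobase, with a mean near Aqp4 at 148 ± 17.3, Acsbg1 at 145 ± 16.9 and Ntsr2 at 145 ± 17.9. Its SD pools the sexes, whose Gfap footprints did not overlap, at 127 to 171 CPM in wild-type females and 270 to 296 in wild-type males. The rank of Gfap among these genes need therefore not hold within each sex. Of the 12 lowest genes, 11 were reactive and 1 homeostatic (Aldh1l1, 32.6 ± 4.22). At the bottom were Osmr at 1.52 ± 0.442, and Steap4 at 0.434 ± 0.351.

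Most of the 33 genes had more footprints than input RNA would give. In wild-type animals of both sexes 28 members were higher in footprints than in input RNA, where 37% of 14146 tested genes were higher and 38.3% lower. The median log2 difference was 1.03 for homeostatic and 0.76 for reactive members, beside -0.01 for all genes. Sox9, the transcription factor of astrocyte identity, had the largest excess, 3.53 ± 0.13 (SE), followed by Atp1b2, a sodium pump subunit, at 2.80 ± 0.09, and Id3 at 2.38 ± 0.11. Clu was higher by 2.08 ± 0.07, Ntsr2, a neurotensin receptor, by 2.07 ± 0.07, and Gja1, the gap junction protein connexin 43, by 1.90 ± 0.06. Glul, glutamine synthetase, was the only member lower in footprints, at -0.38 ± 0.07 (edgeR adjusted p = 4.63e-05). Gfap at -0.15 ± 0.11, Gjb6 (connexin 30) at -0.06 ± 0.10, Steap4 at 0.13 ± 0.65 and Fgfr3 at 0.16 ± 0.11 did not pass. Footprints come from translated sequence and input reads from whole transcripts prepared with another kit, so translation and library preparation cannot be told apart in these values.

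**Figure D1:**
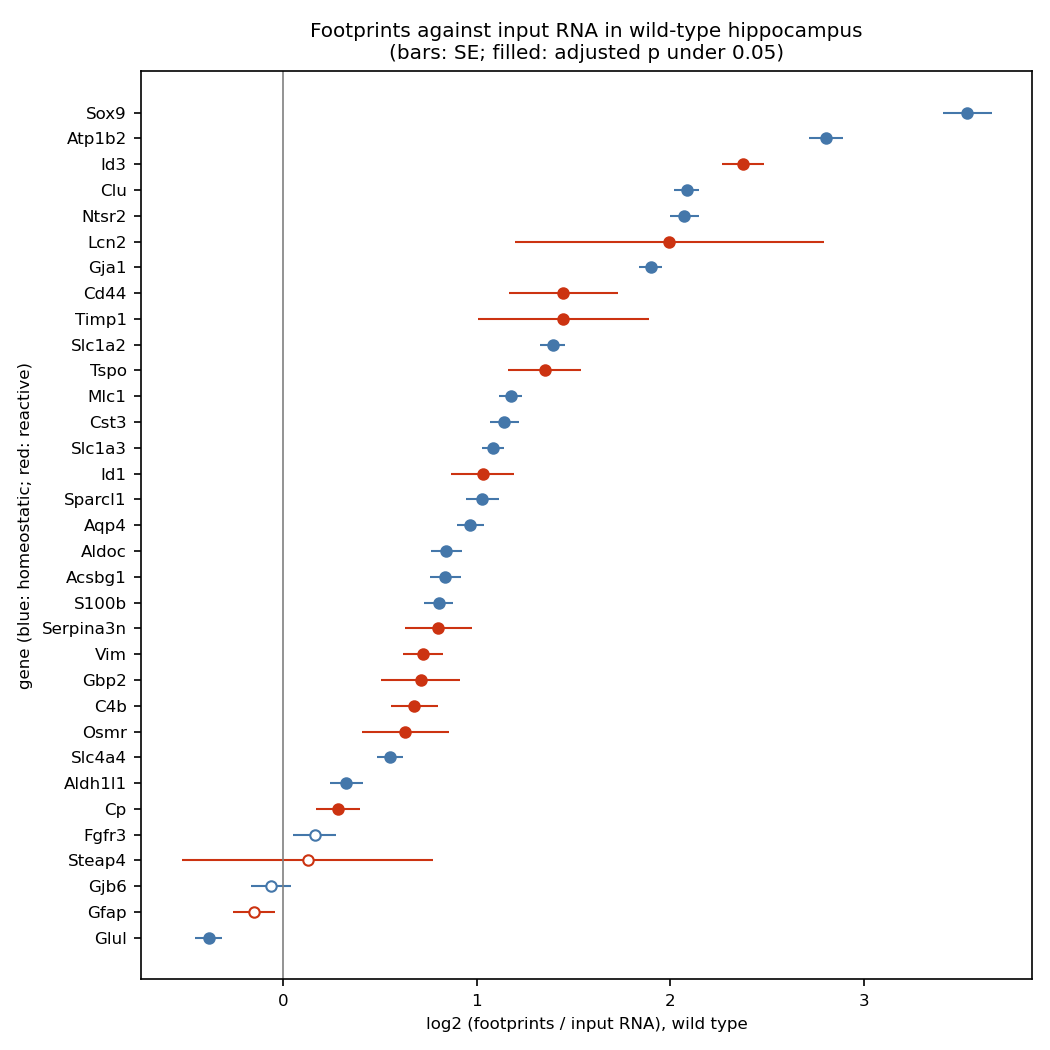
Log2 ratio of footprints to input RNA for each of the 33 genes in wild-type hippocampus, with SE bars, blue for homeostatic and red for reactive genes and filled where the adjusted p was under 0.05. Sox9 lies at 3.53 and Glul, at -0.38, is the only filled point left of 0.

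In knockout females several reactive genes rose, while the median of the homeostatic genes stayed near 0. In footprints 3 of 14 reactive members (Cp, Gfap and Id3) and 1 of 19 homeostatic members (Gja1) rose and 0 of 33 fell, where 2.81% of 13143 tested genes rose and 4.25% fell. In input RNA the same 3 reactive genes rose, no homeostatic gene did and 0 of 33 fell, where 0.748% of 14164 tested genes rose and 2.73% fell. The median log2 difference of the reactive genes was 0.48 in footprints and 0.45 in input RNA, against 0.02 and -0.07 for the homeostatic genes and 0.0030 and 0.0092 for all genes tested. In a bulk tissue such as this, fewer cells of a type and less RNA per cell cannot be told apart.

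Gfap, the intermediate filament protein of astrocytes, had 134, 171 and 127 footprint CPM in the wild-type against 199, 207 and 235 in the knockout females. Its input RNA was 168, 239 and 179 CPM in wild-type and 300.2, 326 and 337 in knockout females. All knockout females lay above all wild-type females in both assays. The log2 difference was 0.57 ± 0.13 in footprints (edgeR adjusted p = 0.0228) and 0.72 ± 0.12 in input RNA (adjusted p = 0.0129). In males Gfap footprints were 296 and 270.1 CPM in wild type and 291 and 231 in knockouts, and input RNA was 384 and 302 against 302 and 303. The male groups overlapped in both assays, and all male values were above those of the wild-type females.

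Vim, the intermediate filament protein vimentin, is expressed by reactive astrocytes and also by endothelial and meningeal cells. Its footprints were 33.1, 37.8 and 37.6 CPM in wild-type and 41.1, 50.3 and 50.5 in knockout females, and its input RNA 23.6, 28.3 and 26.3 against 31.7, 35.6 and 35.0. The female groups did not overlap in either assay. The log2 difference of 0.39 ± 0.14 in footprints and 0.39 ± 0.10 in input RNA missed the threshold (edgeR adjusted p = 0.110 and 0.0607). In males Vim footprints were 52.5 and 45.3 CPM in wild type against 53.8 and 38.5 in knockouts, and input RNA was 37.0 and 29.8 against 33.3 and 30.0, with the groups overlapping.

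Id3 and Id1 encode inhibitors of DNA binding that are induced by BMP signalling. Id3 footprints were 22.2, 29.0 and 30.1 CPM in wild-type and 37.0, 36.5 and 42.9 in knockout females. Id3 input RNA was 6.01, 6.13 and 7.49 CPM against 10.6, 10.3 and 13.3. No knockout female overlapped a wild-type female, and the log2 difference was 0.52 ± 0.14 in footprints (edgeR adjusted p = 0.0386) and 0.80 ± 0.15 in input RNA (adjusted p = 0.0174). In males Id3 footprints were 52.1 and 48.8 CPM in wild type and 62.4 and 55.8 in knockouts, and input RNA was 10.2 and 10.5 against 13.1 and 11.2. The 2 male groups did not overlap either, but the male differences of 0.23 ± 0.16 and 0.24 ± 0.18 did not pass. Id1 differed by 0.22 ± 0.22 in female footprints and by 0.44 ± 0.18 in female input RNA, neither of which passed.

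Cp, ceruloplasmin, is a copper-binding ferroxidase that astrocytes carry on their surface and that choroid plexus and meningeal cells also express. Its footprints were 17.7, 22.1 and 17.7 CPM in wild-type and 31.4, 31.7 and 41.4 in knockout females, and its input RNA 18.3, 21.3 and 22.0 against 27.5, 28.7 and 29.9. The female groups stood apart in both assays, with a log2 difference of 0.87 ± 0.17 in footprints (edgeR adjusted p = 0.0133) and 0.48 ± 0.09 in input RNA (adjusted p = 0.0179). Male Cp footprints were 33.6 and 25.0 CPM in wild type and 20.3 and 25.7 in knockouts, and male input RNA was 24.6 and 25.5 against 23.9 and 23.3. The male footprint groups overlapped, while both knockout input values lay below both wild-type values.

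**Figure D2:**
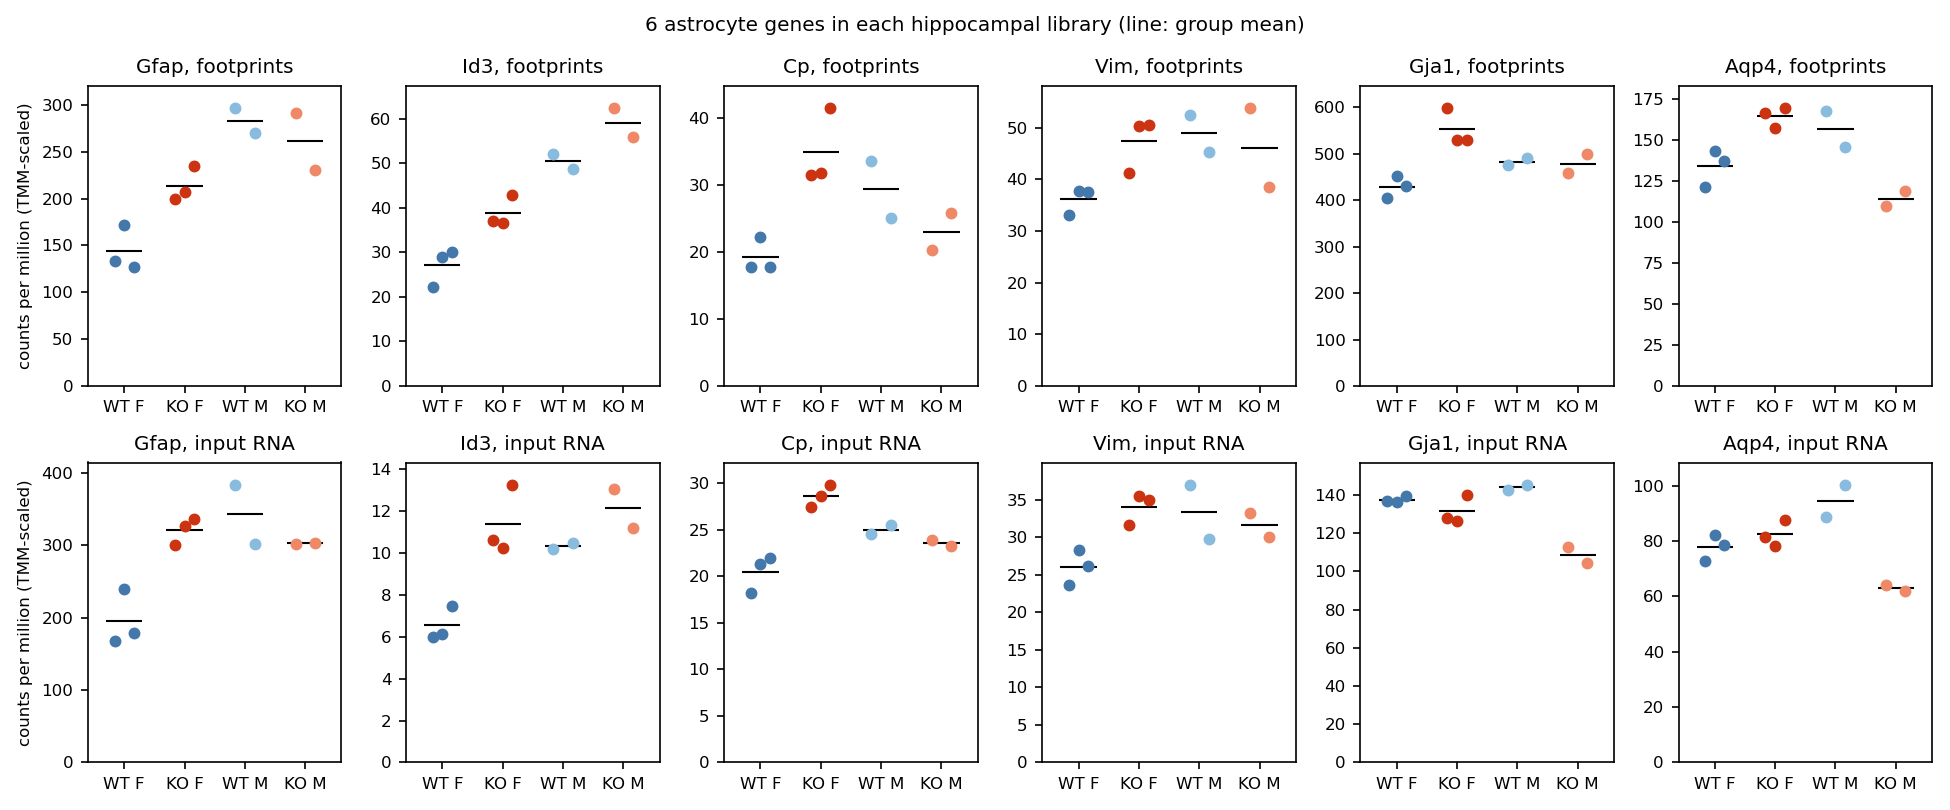
TMM-scaled CPM of 6 genes in each footprint library (top) and input library (bottom), with points for animals and lines for group means of wild-type (WT) and knockout (KO) females (F) and males (M). Gfap, Id3 and Vim are lowest in wild-type females in both assays, and the 2 knockout males are lowest for Aqp4.

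None of the other reactive genes passed the edgeR test in either assay of females. C4b, a complement component with a near-identical neighbouring copy whose reads the counting could split, differed by 0.44 ± 0.13 in footprints (edgeR adjusted p = 0.0638) and 0.46 ± 0.15 in input RNA (adjusted p = 0.105), and DESeq2 called both (adjusted p = 0.0380 and 0.0426). The hyaluronan receptor Cd44 differed by 0.75 ± 0.27 in footprints, the oncostatin M receptor Osmr by 0.70 ± 0.27 and the interferon-inducible GTPase Gbp2 by 0.66 ± 0.23, with adjusted p of 0.0972, 0.128 and 0.0928. In input RNA the same 3 genes differed by 0.62 ± 0.39, 0.13 ± 0.27 and 0.21 ± 0.27. Serpina3n, a secreted protease inhibitor from a family of near-identical copies, differed by 0.34 ± 0.19 in footprints and 0.31 ± 0.20 in input RNA. Tspo, a protein of the outer mitochondrial membrane that is used as a marker of gliosis, was near 0 in footprints (-0.06 ± 0.22) and 0.54 ± 0.25 in input RNA.

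Lcn2, Timp1 and Steap4 were close to the detection limit. Lcn2, the acute-phase lipocalin, was listed at 0 footprint counts in wild-type female 1 and knockout female 2 and reached 4.74 CPM in wild-type male 1, its highest value. Timp1, a metalloproteinase inhibitor, ran from 0.516 to 2.05 CPM in footprints and Steap4, a metalloreductase, from 0.176 to 3.03. Their female footprint differences of -0.97 ± 0.52 for Timp1 and 2.25 ± 0.83 for Steap4 did not pass (edgeR adjusted p = 0.259 and 0.110).

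Among all 14 reactive genes, 8 had every knockout female above every wild-type female in footprints and 1 had the reverse, where 17.1% of all tested genes were fully above and 17.8% fully below. In input RNA 7 of 14 were fully above and 0 fully below, where the shares were 11.8% and 13.4%. Of the 19 homeostatic genes, 5 were fully above and 5 fully below in footprints, and 1 fully above and 4 fully below in input RNA.

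**Figure D3:**
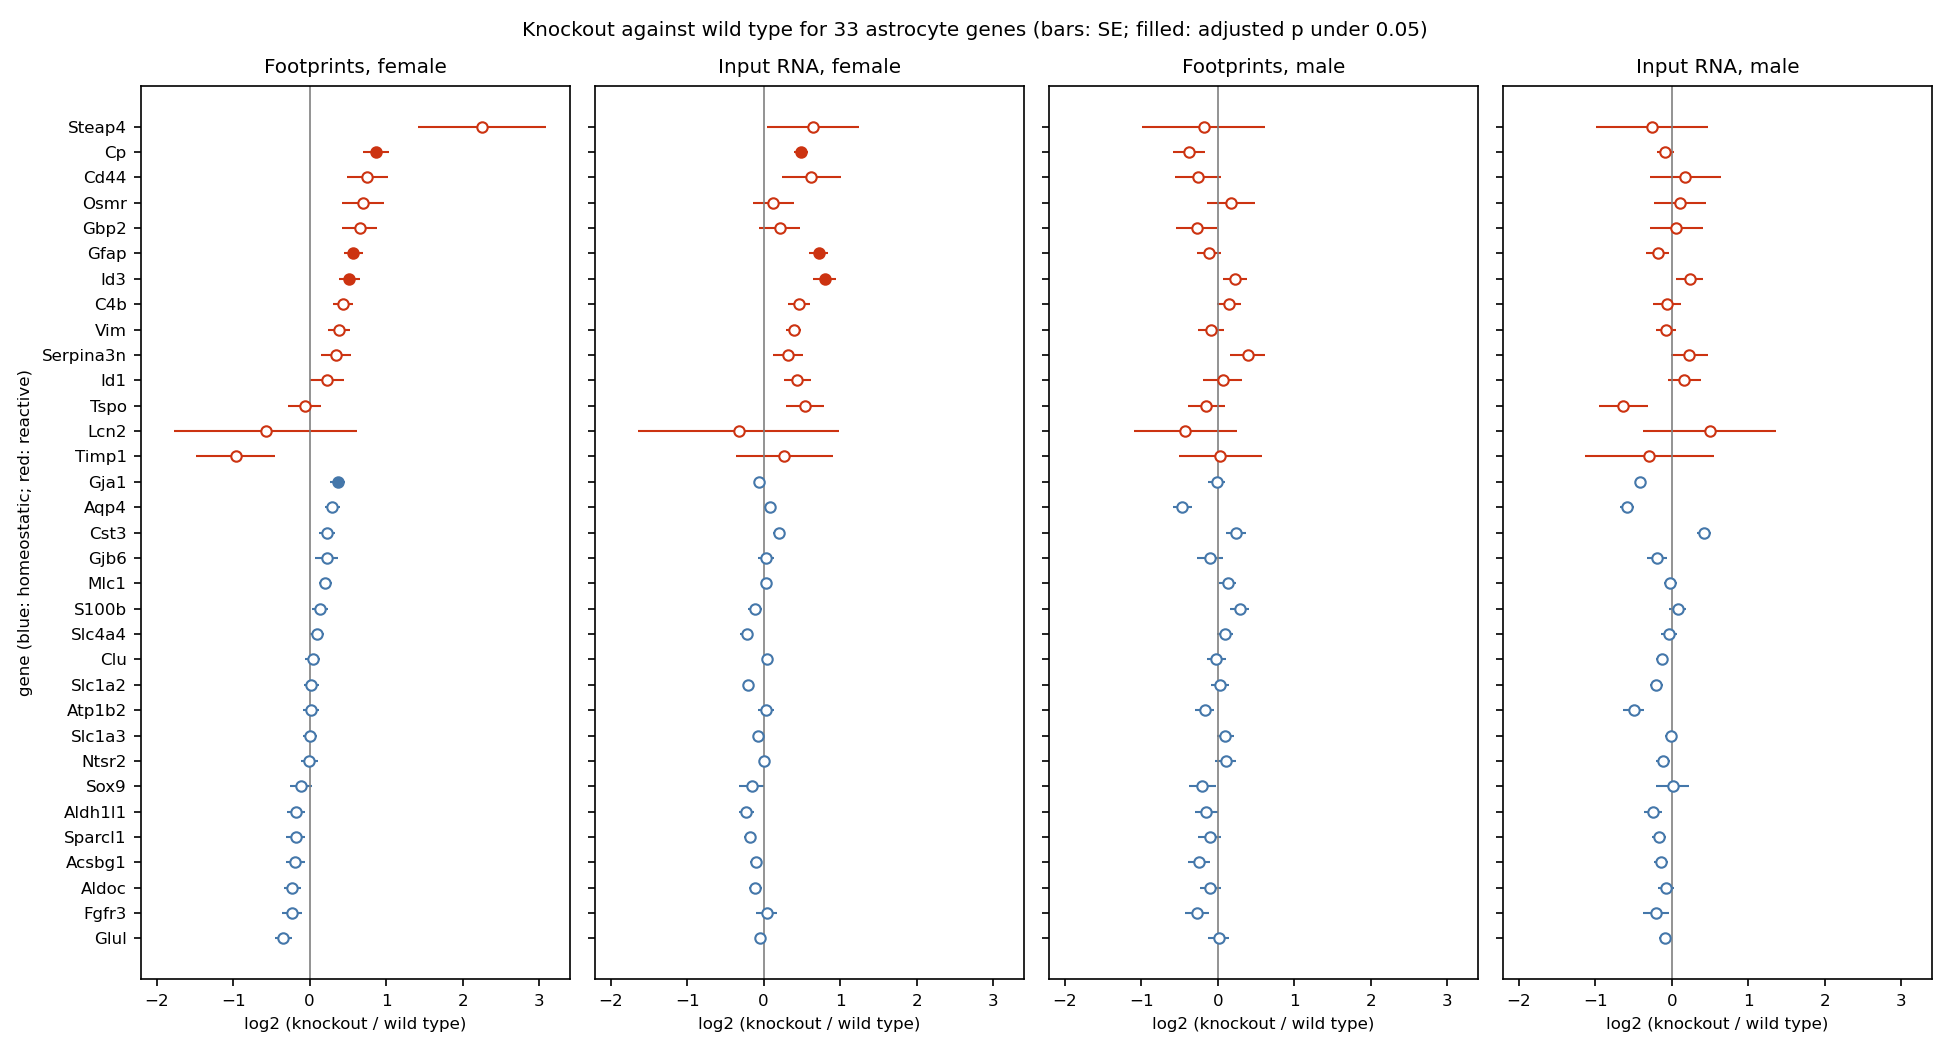
Log2 ratio of knockout to wild type for the 33 genes in footprints and input RNA of females (left pair) and males (right pair), with SE bars and filled points where the adjusted p was under 0.05. In females 11 of 14 reactive genes in footprints and 13 of 14 in input RNA lie right of 0, against 6 of 14 in male footprints. In male input RNA the reactive median is -0.0040. The medians of all genes tested are 0.0030, 0.0092, -0.0024 and 0.0020 in the order of the panels.

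These female differences depended on which animals and tissue terms entered the fit. No fit held a term for meningeal markers, although their mean level separated the female genotypes in both assays. With the mean choroid plexus and striatum marker levels as covariates no member passed: in footprints the differences became 0.51 ± 0.26 for Gfap, 0.66 ± 0.32 for Cp, 0.09 ± 0.28 for Id3 and 0.17 ± 0.22 for Gja1, and in input RNA 0.59 ± 0.21 for Gfap, 0.31 ± 0.17 for Cp and 0.57 ± 0.29 for Id3. When the 3 females richest in striatum markers were omitted (wild-type 1 and 3, knockout 2), 1 wild-type female was left against 2 knockouts, no member passed in either assay, and Gfap was 0.34 ± 0.20 in footprints and 0.41 ± 0.14 in input RNA. Without wild-type females 1 and 2, which had the least choroid plexus signal, 1 wild-type female was again left, 0 members passed in footprints and Gfap stood at 0.77 ± 0.18 (edgeR adjusted p = 0.0632). In input RNA the calls were then Gfap at 0.84 ± 0.13 (adjusted p = 0.00607), C4b at 0.89 ± 0.16 (adjusted p = 0.0134) and Serpina3n at 0.87 ± 0.20 (adjusted p = 0.0347), while Id3 and Cp did not pass. Both of these fits assume that the lone wild-type female varies like the other animals, and the loss of calls with fewer animals cannot be told apart from an effect of tissue. Leaving out knockout female 1 or wild-type female 1 alone left 0 members in each assay. Without knockout female 2 or 3 footprints kept 1, without wild-type female 3 they kept 2, and without knockout female 3 input RNA kept 1.

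The mean level of the 14 reactive genes was lowest in wild-type females. In footprints it was 3.11 to 3.44 log2 CPM in wild-type females, 3.54 to 3.80 in knockout females, 3.69 to 4.22 in wild-type males and 3.83 to 4.05 in knockout males. In input RNA the ranges were 2.55 to 2.81, 3.03 to 3.09, 3.01 to 3.28 and 2.98 to 3.30. No wild-type female reached any other animal in either assay, and the remaining groups overlapped in input RNA. The homeostatic mean ran from 8.58 to 8.74 in footprints over all animals, and the genotypes overlapped in each sex. In input RNA it was 7.69 to 7.70 in wild-type and 7.61 to 7.67 in knockout females. Male input RNA gave 7.55 to 7.75 in wild type and 7.50 to 7.54 in knockouts. Knockouts thus lay below wild type in input RNA of each sex, a difference in means that was not tested.

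**Figure D4:**
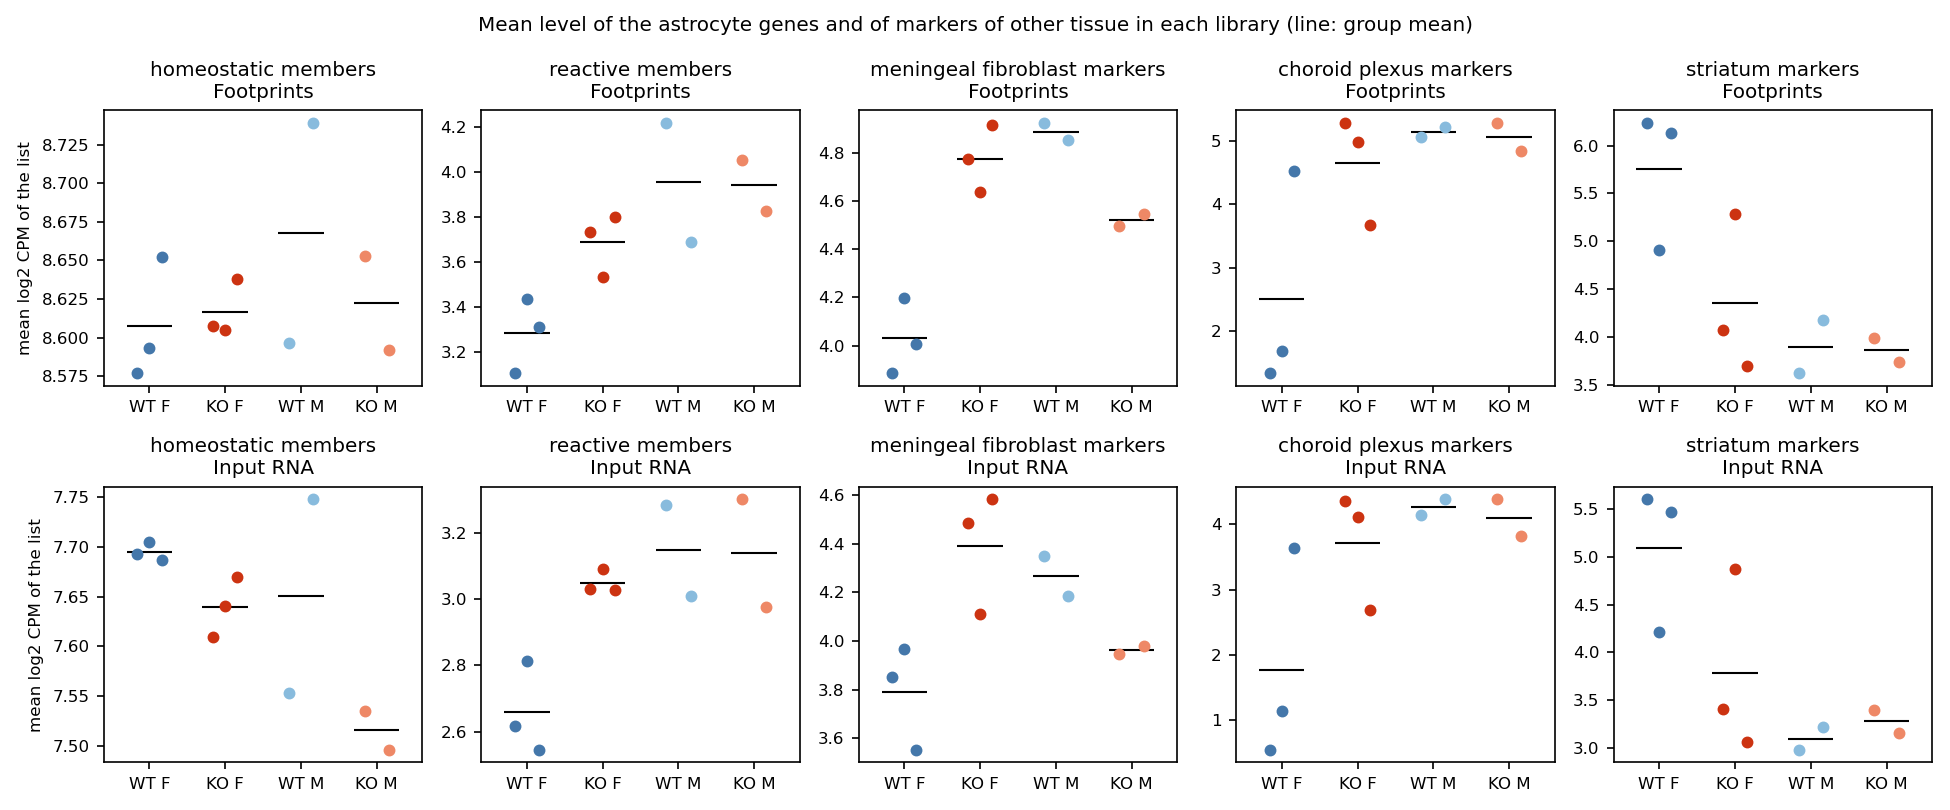
Mean log2 CPM of the homeostatic and reactive genes and of markers of meningeal fibroblasts, choroid plexus and striatum in each library, footprints above and input RNA below, with lines for group means. The group mean of wild-type females is lowest for the reactive genes and for meningeal and choroid plexus markers and highest for striatum markers. The vertical axes differ between panels and do not start at 0.

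Apart from Gja1 footprints, no homeostatic gene passed the edgeR test in knockout females. Glutamate handling is represented by the transporters Slc1a2 (GLT-1) and Slc1a3 (GLAST) and by Glul. Slc1a2 footprints were 5813, 5436 and 6208 CPM in wild-type and 5821, 6147 and 5734 in knockout females, a difference of 0.02 ± 0.10. Its input RNA was 2543, 2371 and 2622 CPM against 2072, 2223 and 2254, and the groups did not overlap, with a difference of -0.20 ± 0.07 that missed the threshold (edgeR adjusted p = 0.122). In males Slc1a2 footprints were 4567 and 4514 CPM in wild type and 4306 and 4968 in knockouts, and input RNA was 1901 and 2156 against 1743 and 1781. Slc1a3 differed by 0.01 ± 0.09 in female footprints, and Glul by -0.35 ± 0.11 (edgeR adjusted p = 0.0749), which DESeq2 called (adjusted p = 0.0368).

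Aqp4, the water channel of perivascular endfeet, had its genotypes in opposite order in the 2 sexes. Its footprints were 121, 143 and 137 CPM in wild-type and 167, 157 and 169 in knockout females, but 168 and 146 in wild-type and 109.6 and 119 in knockout males. Its input RNA was 72.8, 82.0 and 78.7 CPM against 81.4, 78.1 and 87.4 in females, which overlapped, and 88.5 and 100.3 against 64.1 and 62.0 in males, which did not. In males Aqp4 differed by -0.46 ± 0.12 in footprints and by -0.58 ± 0.09 in input RNA, neither past the threshold with edgeR (adjusted p = 0.963 and 0.241), and DESeq2 called the input RNA difference (adjusted p = 0.00673). The female difference minus the male difference was 0.76 ± 0.16 in footprints and 0.66 ± 0.12 in input RNA, with edgeR adjusted p of 0.252 and 0.197 and DESeq2 adjusted p of 0.0155 and 0.00231.

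In males as a whole no member passed in either assay with edgeR, where the share of all genes called was 0% in both. At an unadjusted p under 0.05 there were 1 higher and 1 lower member in footprints and 1 higher and 4 lower in input RNA, and DESeq2 called 0 and 2. Here and below, counts at an unadjusted p under 0.05 come without the share of all genes, so they cannot be read as above background. The same holds for the DESeq2 counts in males and for the difference between the sexes. The median difference of the reactive genes was -0.10 in footprints and -0.0040 in input RNA. Of the 14 reactive genes, 3 were fully above and 1 fully below in male footprints, where 13.2% and 13.7% of all genes were, and in male input RNA 1 was above and 3 below, where 19.3% and 18.5% were. Among the 19 homeostatic genes 4 were fully above and 1 fully below in male footprints, and 2 above and 7 below in male input RNA, among the latter Atp1b2 at -0.49 ± 0.14. No member passed the edgeR test of the difference between the sexes in footprints or input RNA (0% of all genes in each), with 6 and 9 members at an unadjusted p under 0.05 and 2 called by DESeq2 in each. Those DESeq2 calls were Aqp4 and Cp (1.23 ± 0.30, adjusted p = 0.0205) in footprints and Aqp4 and Gfap (0.90 ± 0.19, adjusted p = 0.000723) in input RNA. The 2 tests thus gave different answers on whether the sexes differed, with 2 males per genotype.

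Averaged over the sexes, 2 homeostatic genes passed the edgeR test in input RNA. Cst3 rose and Gja1 fell, where 0.0918% of all genes rose and 0.642% fell. DESeq2 called both, and also called Aqp4 (-0.25 ± 0.07, adjusted p = 0.0234) and Slc1a2 (-0.21 ± 0.06, adjusted p = 0.0117) lower and Id3 (0.51 ± 0.16, adjusted p = 0.0326) higher. Cst3 input RNA was 802, 892 and 800.1 CPM in wild-type and 951, 984 and 921 in knockout females, and 954 and 993 against 1409 and 1201 in males. All knockouts were above wild type within each sex, and the mean log2 difference was 0.31 ± 0.06 (edgeR adjusted p = 0.0484). Cst3 footprints were 1367, 1621 and 1599.8 CPM against 1659, 1943 and 1767 in females and 1934 and 1949 against 2488 and 2084 in males, with the same order within each sex and a mean difference of 0.23 ± 0.08 that did not pass (adjusted p = 0.160). With choroid plexus and striatum covariates the input RNA differences were 0.30 ± 0.08 for Cst3 and -0.25 ± 0.07 for Gja1, neither of which passed (adjusted p = 0.315). Both calls were lost when any 1 of 8 animals was left out, and both held without wild-type female 2 or without wild-type male 1. In footprints no member passed over both sexes, where 0.00761% of genes did, with 8 members higher and 2 lower at an unadjusted p under 0.05 and Id3 called by DESeq2 (0.38 ± 0.12, adjusted p = 0.0411). Without wild-type male 1 the calls over both sexes were 4 members in footprints and 7 in input RNA.

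Gja1, connexin 43, forms the gap junctions that couple astrocytes and is also made by meningeal cells. Its footprints passed the edgeR test in females alone and its input RNA only over both sexes, so these calls come from different comparisons. Its footprints were 405, 453 and 431 CPM in wild-type and 598, 530.4 and 530.1 in knockout females, and 476 and 490.3 against 459 and 499 in males. Its input RNA was 137, 136 and 139 CPM against 128, 126 and 139.9 in females, and 143 and 145 against 113 and 104 in males. Footprints thus rose in knockout females by 0.36 ± 0.09 (edgeR adjusted p = 0.0355), and over both sexes input RNA fell by 0.24 ± 0.05 on the log2 scale (adjusted p = 0.0489). The genotypes overlapped in female input RNA and in male footprints.

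The ratio of Gja1 footprints to input RNA separated the genotypes in both sexes. It was 2.95, 3.33 and 3.09 in wild-type and 4.67, 4.20 and 3.79 in knockout females. The male ratios were 3.33 and 3.37 in wild type against 4.07 and 4.78 in knockouts. All 5 knockout animals were above all 5 wild-type animals. This was not particular to Gja1, since the Slc1a2 ratio was 2.09 to 2.40 in wild-type and 2.47 to 2.81 in knockout animals. The S100b ratio overlapped in females, and the share of all genes that separate in this way was not computed. For Gja1 the log2 change in translational efficiency, the interaction of assay and genotype, was 0.45 ± 0.10 in females, 0.41 ± 0.13 in males and 0.43 ± 0.08 over both. Without a term for the animal it passed in no comparison (edgeR adjusted p = 0.131, 1.000 and 0.0961), where 0.0424% of genes passed in females, 0% in males and 0% over both sexes. With the animal as a block, since both libraries of an animal share a lysate, it passed in females (0.45 ± 0.10, adjusted p = 0.0169) and over both sexes (0.43 ± 0.08, adjusted p = 0.0163), where 2.79% and 0.806% of genes passed. DESeq2 without the block gave adjusted p of 0.0095 and 0.00125. Choroid plexus and striatum covariates left the values at 0.44 in females and 0.42 over both sexes, and no fit held a term for meningeal markers.

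Slc4a4, a sodium bicarbonate cotransporter, was the only other member whose translational efficiency passed with the animal block, in females alone (0.33 ± 0.09, adjusted p = 0.0493). Its ratio of footprints to input RNA was 1.16, 1.30 and 1.21 in wild-type and 1.63, 1.49 and 1.44 in knockout females, which did not overlap. In males it was 1.38 and 1.28 against 1.37 and 1.53, which did. For the reactive genes the median change in translational efficiency was 0.0022 in females and 0.04 in males, with Gfap at -0.13 ± 0.19 and 0.08 ± 0.24. The homeostatic median was 0.056 in females and 0.128 in males, beside 0.015 and 0.017 for all genes tested. No member passed without the block by edgeR, with 3 higher and 1 lower in females and 5 higher over both sexes at an unadjusted p under 0.05.

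Calls among further genes of the same pathways were few, and are to be read against the 2.81% higher and 4.25% lower of all genes in female footprints and the 0.748% and 2.73% in female input RNA. Of 45 other astrocyte genes, 2 rose and 2 fell in female footprints: Lxn, a carboxypeptidase inhibitor (0.75 ± 0.15), and Pla2g7, a secreted phospholipase (0.38 ± 0.10), rose, while Chrdl1, a secreted BMP antagonist (-0.83 ± 0.20), and Tril, a Toll-like receptor co-factor (-0.69 ± 0.18), fell. In female input RNA 2 fell, Chrdl1 (-1.10 ± 0.27) and the deiodinase Dio2 (-0.41 ± 0.09), and Dio2 also fell over both sexes (-0.47 ± 0.08). Of 33 other reactive genes tested, 3 rose in female footprints, namely Amigo2 (0.83 ± 0.15), the complement inhibitor Serping1 (0.74 ± 0.16) and Tm4sf1 (0.57 ± 0.16), and none of 34 passed in input RNA, with 6 higher and 3 lower at an unadjusted p under 0.05. Of the gp130 and STAT3 pathway genes none of 11 passed in female footprints and none of 12 in input RNA by edgeR, with 1 higher and 2 lower in the respective assays at an unadjusted p under 0.05. Of 23 BMP and TGF-beta pathway genes, the pseudoreceptor Bambi rose (0.56 ± 0.15) and the endothelial receptor Acvrl1 fell (-0.73 ± 0.20) in female footprints. In input RNA the ligand Tgfb2 rose (0.89 ± 0.19) and Acvrl1 fell (-0.71 ± 0.16). None of 10 further glutamate and glutamine genes passed in females by edgeR, with 2 higher and 1 lower in footprints and 0 in input RNA at an unadjusted p under 0.05. In males none of these lists had a gene past the threshold.

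The genes whose input RNA tracked Gfap most closely were ranked over the 10 input libraries after the mean of each sex was subtracted, among 14163 other genes. Pearson's r was 0.97 for both Tgfbr3, a TGF-beta co-receptor, and Tgfb2, 0.96 for Mcu, the mitochondrial calcium uniporter, and 0.95 for Rpa1 and Vim. These libraries share the female differences in tissue markers given above, and the values describe likeness alone.

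The tables of footprints per codon allowed a look at the codons that queuosine tRNAs read. In the coding sequences those codons made up a median of 14.6% for homeostatic members and 13.2% for reactive members, beside 13.7% over 17677 genes. The extremes among the members were Cp with 20.1%, above 98.3% of genes, and Mlc1 with 8.51%, and Gja1 had 14.7%. Footprints were listed on codons of 19 members, of which 8 had at least 100 in every library. The sources used here do not say which ribosomal site the listed codon occupies, and its letters matched the GENCODE M21 coding sequence at all 10463 positions of members.

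Sparcl1 had the most assigned footprints, 20866 to 47795 per library. The share on asparagine, aspartate, histidine and tyrosine codons was 22.7% to 23.3% in wild-type and 27.7% to 28.0% in knockout females, and 25.5% and 30.2% against 27.4% and 28.7% in males. Females separated by genotype and males did not. Over all listed transcripts the share was 16.7% to 18.1% in the 5 wild-type and 18.3% to 19.2% in the 5 knockout libraries, which did not overlap. Cst3, with 1131 to 9101 assigned footprints, had 8.40%, 14.8% and 8.15% in wild-type against 21.6%, 16.9% and 16.1% in knockout females, and 21.1% and 10.8% against 21.0% and 21.3% in males. S100b, a calcium-binding protein, had 17.7% to 21.7% in wild-type and 26.9% to 30.4% in knockout females, while its male groups overlapped. Clu overlapped in females, with 15.6% to 17.5% in wild type and 15.4% to 18.9% in knockouts, although its 2 knockout males (14.5% and 16.2%) were above its 2 wild-type males (12.8% and 14.0%). The remaining 4 members gave other patterns. Sox9 (20.5% to 23.6% in wild type against 20.3% to 27.6% in knockouts), Acsbg1 (a lowest value of 17.3% in wild type against 16.9% to 18.3%) and Serpina3n (22.3% to 27.3% against 20.9% to 26.1%) overlapped in females. The male groups of Sox9 overlapped as well. Both knockout males were above both wild-type males for Acsbg1 (18.6% and 21.6% against 18.1% and 16.5%). The same order held in males for Serpina3n (25.3% and 24.3% against 20.5% and 20.6%). Slc1a3 was higher in knockout females (71.5% to 83.4% against 51.9% to 68.9%) and lower in knockout males (69.5% and 76.4% against 77.5% and 78.1%). The Slc1a3 shares rest on 6 to 10 listed codons of its 543 and on 135 to 476 assigned footprints per library. They do not describe the whole coding sequence.

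Because the ribosomal site is not known, the same share was also computed for the codon just upstream of the listed one. For Sparcl1 it had the opposite order in females, with 20.7% to 22.6% in wild type and 16.8% to 18.7% in knockouts, of which aspartate codons made up 16.4% to 19.2% and 12.2% to 14.0%. In males it was 16.6% and 14.2% in wild type against 15.1% and 14.9% in knockouts, which overlapped. The direction for Sparcl1 females therefore depends on which codon is read.

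**Figure D5:**
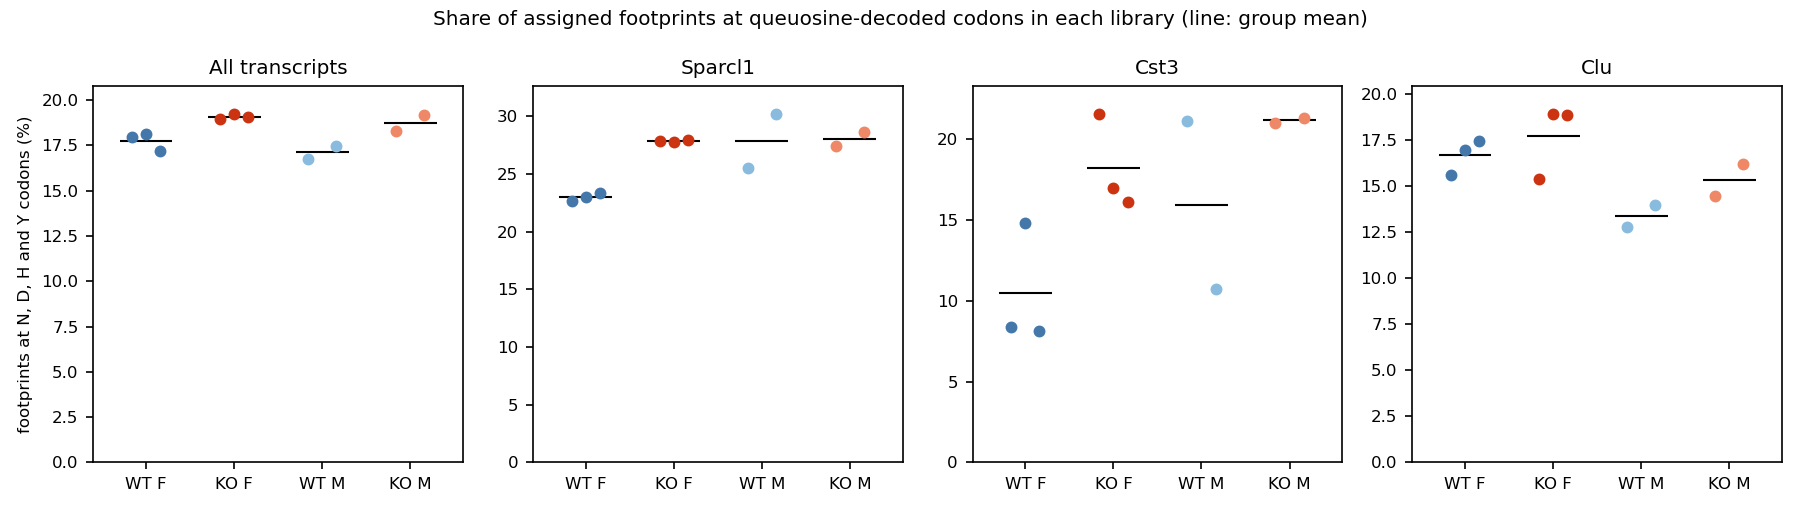
Percent of assigned footprints at asparagine, aspartate, histidine and tyrosine codons over all transcripts and on Sparcl1, Cst3 and Clu, with points for libraries and lines for group means. Over all transcripts the knockout libraries (18.3% to 19.2%) lie above the wild-type libraries (16.7% to 18.1%), and for Sparcl1 and Cst3 the female groups separate.

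In Cst3 a single codon carried most of the share, while in Sparcl1 no single codon did. These coding stretches surround the 3 most occupied codons of this kind in Sparcl1 and the most occupied one in Cst3, chosen by their mean share over all libraries, with the codon in capitals. On GRCm38, in the GENCODE M21 annotation and on the minus strand, they lie within single coding exons at chr5:104085721-104085747, chr5:104085799-104085825, chr5:104087127-104087153 and chr2:148872005-148872031.
Sparcl1 codon 583: cactggcagtttAATgaactggaccag
Sparcl1 codon 557: ctcttggctggaGACcatcccattgaa
Sparcl1 codon 503: cctgcttgtacgGACtttgaagtggct
Cst3 codon 122: tccttccagatcTACagcgtgccctgg
The asparagine codon 583 took 3.19% to 4.18% of assigned Sparcl1 footprints in wild-type and 6.38% to 7.57% in knockout females, and 4.81% to 8.73% against 6.14% to 7.11% in males. At the aspartate codon 503 wild-type females had 2.15% to 2.33% and knockout females 3.26% to 4.20%, and wild-type males 1.77% to 2.47% and knockout males 2.82% to 3.15%, so the genotypes did not overlap in either sex. The aspartate codon 557 overlapped, with 2.51% to 3.03% in wild-type and 2.18% to 3.51% in knockout females. The tyrosine codon 122 of Cst3 alone took 7.48% to 14.4% of its assigned footprints in wild-type and 15.7% to 21.4% in knockout females, and 10.6% to 20.7% against 20.8% to 21.1% in males. Only 17 to 23 of the 140 Cst3 codons were listed per library, so this is a share of the footprints on those codons. At codon 583 and at codon 122 the 2 wild-type males differed from one another by more than the 3 knockout females did. These shares were given no test.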

How the data were processed

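Ribosome footprints and input cytoplasmic RNA were sequenced from the hippocampi of 10 mice. The deposited table of the authors holds raw read counts per gene, and a second deposited set holds footprint counts per transcript and codon with the percent of coding sequence covered, per the file headers. Tables of the authors' enrichment results were not used. Per the submitters' processing notes the tools included cutadapt 1.8.1, Trimmomatic 0.39, Bowtie 1.0.0 and 1.2.2 and SAMtools 0.1.19. The sources used here name neither the genome build nor the counting program. Per the labels' protocols, ribosomal RNA was depleted and cycloheximide was in the lysis buffer.

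Counts were fitted with edgeR 4.0.16 (R 4.3.3; TMM scaling, filterByExpr, quasi-likelihood test) in 1 model per assay over sex and genotype, and p-values were adjusted by Benjamini-Hochberg over all genes tested, with a call at 0.05. Translational efficiency was the interaction of assay and genotype over 20 libraries. DESeq2 1.42.0 was an alternative. SE is the log2 difference divided by the square root of F. The fits were tested on simulated data. Depth was 5357812 to 15517982 counts in footprints and 9000662 to 13637370 in input libraries, and reads without molecular identifiers are not independent molecules.

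Footprint and input libraries of an animal come from 1 lysate, and their deviations from the group means correlated at 0.257 to 0.548, so an animal block was also fitted. The labels name separate animals, and p-values measure the spread between these animals. Values in each library are given for every member that edgeR called in a knockout comparison of footprints or input RNA, and for Gfap, Vim, Slc1a2 and Aqp4. The likeness to Gfap names the 5 genes with the highest r. The members, lists and tests were chosen with earlier results of these data known. Coding sequence and codon positions come from GENCODE M21, and promoters from RefSeq.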

Additional observations from a re-analysis of the deposited data

How the results depend on the processing

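Among 33 members, edgeR called 4 in female footprints, 3 in female input RNA, 2 in input RNA over both sexes and 29 in the wild-type contrast of assays, and 0 elsewhere. With the replicate block, which treats equal replicate numbers as pairs, 1 member was called in female footprints and 0 in input RNA over both sexes. Wild-type and knockout animals with the same number did not deviate together (r from -0.21 to 0.09), although males with the same number share an age. For translational efficiency the block is the animal, and it called 2 members in females and 1 over both sexes. A fit to female libraries alone called 8 in footprints. DESeq2 called 1 in footprints over both sexes, 2 for the sex difference in footprints and 2 in input RNA, 2 in male input RNA, 5 in input RNA over both sexes, and 1 each for translational efficiency in females and over both sexes. Without a filter on low counts 1 member was called for the sex difference in footprints and 4 in input RNA over both sexes. Omitting wild-type females 1 and 2 left 0 in female footprints and gave 1 for the sex difference in input RNA. Omitting the females with high striatum markers left 0 in female footprints, 0 in female input RNA and 0 in input RNA over both sexes, and so did the choroid plexus and striatum covariates (0, 0 and 0). The cause was not tested.

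Leaving out 1 animal at a time gave 0 to 5 members in female footprints, 0 to 4 in female input RNA, 0 to 4 in footprints over both sexes, 0 to 7 in input RNA over both sexes, 0 to 1 in male input RNA, 0 to 2 for the sex difference in input RNA and 0 to 1 for translational efficiency over both sexes. Without wild-type male 1 the calls were 4 in footprints and 7 in input RNA over both sexes, 1 in male input RNA, 1 for the sex difference in input RNA and 1 for translational efficiency over both sexes, and without wild-type female 2 they were 6 in input RNA over both sexes and 2 for the sex difference in input RNA. Where a setting left 1 animal in a group, as both settings that omit several females did for wild-type females, that animal is assumed to vary like the others.

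The reactive minus homeostatic median, 0.46 in female footprints, fell to 0.19 with the covariates and ranged from 0.40 to 0.55 with 1 animal left out. In female input RNA it was 0.52, against 0.61 without wild-type females 1 and 2, 0.42 when Clu and Cst3 were counted as reactive and Id1 and Id3 as homeostatic, and 0.42 to 0.57 with 1 animal left out. Slc1a2 in female footprints turned to -0.057 without wild-type females 1 and 2 and ranged from -0.027 to 0.069 with 1 animal left out, being -0.0093 without knockout female 2. Aqp4 in female input RNA turned to -0.065 with the covariates. With 1 animal left out, male Gfap ranged from -0.29 to 0.041 in footprints and from -0.35 to 0.0013 in input RNA, and male Vim from -0.35 to 0.13 in footprints, with 0.040 without wild-type male 1, and from -0.23 to 0.087 in input RNA.

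Over all genes, 928 were called in female footprints, against 308 with the block, 1849 from female libraries alone, 120 without wild-type females 1 and 2, 1 without the females with high striatum markers, 1 with the covariates and 37 to 1545 with 1 animal left out. In female input RNA 493 were called, against 324, 452, 498, 7, 0 and 4 to 1030. In input RNA over both sexes 104 were called, against 414 by DESeq2 and 271 without the filter, and in footprints over both sexes 1, against 509 and 534. For translational efficiency 6 were called in females and 0 over both sexes, against 136 and 50 by DESeq2 and 394 and 114 with the animal block. Scaling by DESeq2 size factors changed no call among members. With 2 males a group and members such as Lcn2, Timp1 and Steap4 near the detection limit, small differences were not detectable at this depth.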
